A study of Homo sapiens with 2 samples.

Results

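S100 proteins and annexins were followed in THP-1 cells, an established human monocytic line of acute myeloid leukaemia, as the 10 genes S100A4, S100A6, S100A8, S100A9, S100A10, S100A11, ANXA1, ANXA2, ANXA5 and ANXA6. They were taken by gene name, with no minimum level, and are 10 of the 11697 gene symbols measured. One culture received the solvent DMSO for 48 h and the other 2 µM of an agent known here just by its label, OPA1, also for 48 h; the name stands for the treatment and not for the mitochondrial gene. Beyond the cell line and the medium shared by both cultures the labels give no further agent or genetic change. The series title sets the comparison in work on opioid receptor signalling and TET-dependent DNA demethylation in leukaemia. With 1 library in each group nothing below could be checked against replicates, and p-values were not calculated.

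S100 proteins are small calcium-binding proteins built from EF-hand helices, and they act mostly as dimers that change shape on binding calcium and then grip a partner protein. Annexins bind acidic phospholipids of membranes in the presence of calcium, through a conserved core of repeats, and use a variable N-terminal tail to hold partners. The families meet in defined complexes, of which S100A10 with annexin A2 and S100A11 with annexin A1 are the best known. In monocytes and neutrophils S100A8 and S100A9 form calprotectin, an abundant cytosolic complex that is released in inflammation.

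The level of a gene was the sum of its listed transcripts in FPKM, fragments scaled to transcript length and to the library total, which allows genes to be compared per length. A fold is the plain ratio of the FPKM values of the OPA1 and the DMSO library. A log2 ratio was taken after 1 FPKM had been added to both values, and a count of genes past a fold uses that ratio. Differences were small: 8 of the 10 members were higher in the OPA1 library and 2 were lower, against 49.9% of the 10601 genes with a mean level of 1 FPKM or more that were higher by any amount. S100A10 and S100A4 were higher by 25% or more, as were 12.6% of all those genes, and no member was lower by 20% or more (the same fold downwards), as were 11.3%. No member was 1.5-fold higher or lower, against 5.43% and 5.08% of all genes, or 2-fold apart, against 1.97% higher and 1.99% lower. The median log2 ratio was 0.17 over the 6 S100 members and 0.19 over the 4 annexins, and 0.00 (-0.000239) over all genes, whose interquartile range was -0.15 to 0.16. High genes varied less: of 1394 genes with a mean level of 40 FPKM or more, a limit set just below the lowest member after its level was seen, 54.1% were higher by any amount, 7.46% were higher by 25% or more and 6.53% lower by 20% or more, with a median of 0.02.

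**Figure D1:**
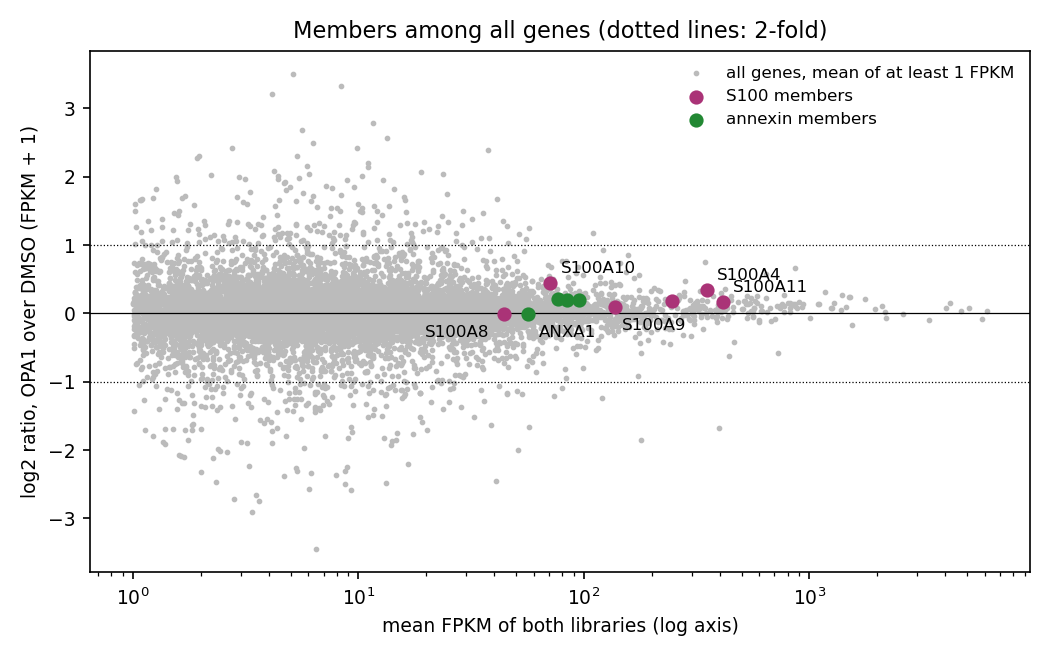
Log2 ratio of the OPA1 over the DMSO library on the FPKM + 1 scale (vertical axis) against the mean FPKM of both libraries (horizontal log axis). Grey points are all genes with a mean level of 1 FPKM or more, coloured points the 6 S100 and 4 annexin members, and dotted lines mark 2-fold; S100A10 (0.44) and S100A4 (0.34) lie highest among the members, and S100A8 and ANXA1 lie at -0.01.

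All 10 members had a promoter entry in RefSeq (GRCh38.p14), from 250 bases before to 50 bases after the annotated start, in 13 windows, since S100A8 has 3 starts and ANXA6 has 2. Since the title concerns DNA demethylation, and CG dinucleotides are the sites at which DNA is methylated, 5 windows are shown with every CG in capitals. They are those of S100A10 and S100A4, the members with the largest ratios, ANXA2, which partners S100A10, and S100A8 and ANXA1, the members that were level. The file with the expression values uses hg19, so these coordinates are not to be set against the gene positions given further on. The windows were not aligned to the starts of the listed transcripts. Their CG counts and motifs, also those of S100A10, need not be those of the transcripts measured.
S100A10 (chr1:151993810-151994109, minus strand): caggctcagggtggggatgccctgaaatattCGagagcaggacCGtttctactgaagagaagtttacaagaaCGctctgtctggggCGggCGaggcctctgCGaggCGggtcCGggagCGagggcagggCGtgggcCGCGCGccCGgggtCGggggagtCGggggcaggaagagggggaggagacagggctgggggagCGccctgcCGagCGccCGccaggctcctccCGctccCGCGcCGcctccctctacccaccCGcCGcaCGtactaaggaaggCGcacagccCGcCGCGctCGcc
S100A4 (chr1:153545757-153546056, minus strand): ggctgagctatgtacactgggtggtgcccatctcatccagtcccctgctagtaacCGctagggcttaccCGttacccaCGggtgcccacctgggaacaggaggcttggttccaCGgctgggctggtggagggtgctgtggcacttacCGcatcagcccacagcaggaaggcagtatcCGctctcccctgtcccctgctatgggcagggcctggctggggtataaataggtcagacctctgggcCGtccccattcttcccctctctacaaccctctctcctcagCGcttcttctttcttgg
ANXA2 (chr15:60397937-60398236, minus strand): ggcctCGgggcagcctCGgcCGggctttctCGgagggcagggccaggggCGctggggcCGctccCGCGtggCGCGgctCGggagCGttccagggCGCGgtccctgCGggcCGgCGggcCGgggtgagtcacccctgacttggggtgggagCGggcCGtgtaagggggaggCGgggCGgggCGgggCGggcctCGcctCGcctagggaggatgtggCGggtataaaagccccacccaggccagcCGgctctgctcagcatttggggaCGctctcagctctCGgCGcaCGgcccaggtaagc
S100A8, second of its 3 entries (chr1:153391024-153391323, minus strand): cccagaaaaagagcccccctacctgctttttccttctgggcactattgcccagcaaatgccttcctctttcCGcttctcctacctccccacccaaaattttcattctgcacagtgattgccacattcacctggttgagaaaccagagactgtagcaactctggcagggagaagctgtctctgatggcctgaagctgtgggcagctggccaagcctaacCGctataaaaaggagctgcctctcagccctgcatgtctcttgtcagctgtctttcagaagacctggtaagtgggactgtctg
ANXA1 (chr9:73151615-73151914, plus strand): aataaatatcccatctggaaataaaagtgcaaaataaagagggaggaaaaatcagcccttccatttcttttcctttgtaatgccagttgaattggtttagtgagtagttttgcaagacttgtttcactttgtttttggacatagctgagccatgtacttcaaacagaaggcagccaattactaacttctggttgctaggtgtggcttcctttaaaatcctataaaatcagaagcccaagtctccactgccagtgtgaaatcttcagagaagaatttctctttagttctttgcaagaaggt

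CG content split the members. The windows of S100A10 and ANXA2 held 32 CG each, more than 81.1% of all 35116 windows of the same length held, and the ANXA5 window held 36. S100A6 had 31, S100A11 had 22 and the ANXA6 windows had 25 and 10, where the median of all windows was 14. S100A4 had 8, S100A9 had 5, each of the 3 S100A8 windows had 2, and ANXA1 had 0. The 3 members with the fewest CG, S100A9, S100A8 and ANXA1, were also those with the smallest log2 ratios, at 0.09, -0.01 and -0.01. This was seen after the ratios were known. Windows with under 10 CG were 43.6% of all windows, and the ratios of other genes with few CG were not compared. S100A4, with a window below the median in CG, had the second largest ratio, so the order by CG content is not the order by ratio. No methylation was measured in these libraries, and the part of CG content in the differences was not tested.

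Short motifs were searched on both strands of the same windows. TATAAA, the core of the TATA box, was found in 5 of the 10 members (S100A4, S100A8, S100A9, ANXA1 and ANXA2). That was 6 of the 13 windows, against 11.5% of all windows. TATAAA began 31 bases before the start in S100A4, ANXA1 and ANXA2, and 29 bases before it in S100A9 and in the printed window of S100A8. Of the other S100A8 windows, the first had no TATAAA and the third had it 126 bases before its start. The S100A8 windows overlap, and this is the same site as in the printed window. That site thus enters the count of 6 more than once, and the windows are not separate cases. S100A8 is the exception to the windows left unaligned. Its starts were placed by the shift between builds at S100A9, taken as the same for both genes. By that shift the main transcript S100A8-202 starts at the first entry, whose window has no TATAAA. It carried 96.4% of the gene with DMSO and 95.4% with OPA1. S100A8-201 starts at the third entry. No listed transcript starts at the printed entry, so its TATAAA at 29 bases is not placed before a measured start. GGGCGG, the GC box bound by Sp1, was found in 7 members (S100A6, S100A9, S100A10, S100A11, ANXA2, ANXA5 and ANXA6). That was 7 of the 13 windows, against 44.95% of all windows, and ANXA2 held 3 overlapping copies. GAGGAA, part of sites of PU.1 and other ETS factors, was found in S100A8, S100A9 and ANXA1. That was 4 of the 13 windows, against 27.9% of all windows. The S100A8 matches, in its first and its printed window, are the same site, so it is counted more than once. TTNCNNNAA was searched as a loose C/EBP pattern, but it is longer than the C/EBP core, so its matches are not read as C/EBP sites. It was found in S100A9, S100A10 and ANXA1, in 3 of the 13 windows, and in 33.9% of all windows. TGANTCA, the AP-1 site, was found in ANXA2 alone among the members, in 1 of the 13 windows, and in 7.71% of all windows. TGACGTCA, the cyclic AMP response element, was found in none of the 13 windows and in 1.85% of all windows. These letters overlap partly with other sites, and a match or its lack describes only these windows.

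In level the S100 members made up most of the signal. The 6 S100 genes summed to 1167 FPKM under DMSO and 1355 FPKM under OPA1, which was 0.359% and 0.409% of all listed FPKM. The 4 annexins summed to 295 and 329 FPKM, or 0.0906% and 0.0993%. The order of the 10 members by level was the same in both libraries: S100A11, S100A4, S100A6, S100A9, ANXA2, ANXA5, ANXA6, S100A10, ANXA1 and S100A8. S100A11 ranked at place 101 of all genes with DMSO and 87 with OPA1, and S100A8 at 1247 and 1271. Without replicates no neighbours in that order can be shown to differ. In bulk RNA, fewer cells that express a gene and less RNA per cell cannot be told apart.

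**Figure D2:**
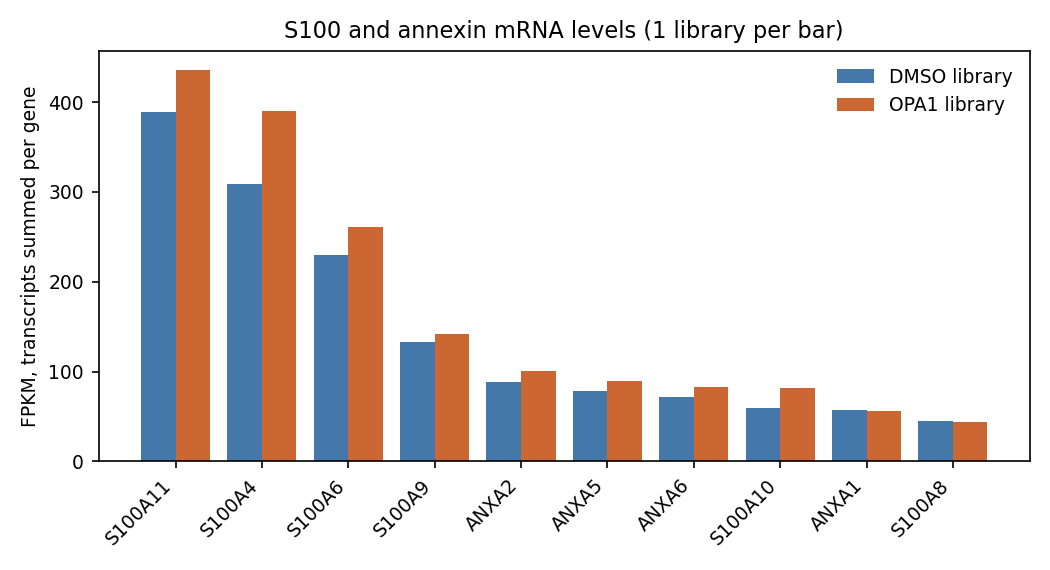
FPKM of each member (vertical axis, starting at 0), summed over its transcripts, in the DMSO library (blue) and the OPA1 library (orange), ordered by mean level. Each bar is 1 library without error; the levels run from 435 FPKM for S100A11 with OPA1 to 44.2 FPKM for S100A8 with OPA1, and the order is the same in both.

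Among the S100 members that bind cytoskeletal or annexin partners, S100A10 differed most. S100A10, also called p11, is the S100 protein with inactive calcium sites and binds annexin A2 (chromosome 1, 151955391 to 151966866, minus strand, hg19). It was at 59.98 FPKM under DMSO and 81.7 FPKM under OPA1, which is 1.36-fold higher (log2 ratio 0.44). Of all genes with a mean level of 1 FPKM or more, 8.49% had a higher ratio, and of those with a mean level of 40 FPKM or more, 4.23%. Its single listed transcript, S100A10-202, has 3 exons and codes for 97 amino acids. S100A10 differed by more than its partner, and the S100A10 level was 0.679 of that of ANXA2 with DMSO and 0.81 of it with OPA1, a ratio that does not depend on the scaling of a library.

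S100A4, a dimer that binds non-muscle myosin heavy chains and is linked to cell motility (chromosome 1, 153516089 to 153522612, minus strand), was at 309 FPKM under DMSO and 390.4 FPKM under OPA1. That is 1.26-fold higher (log2 ratio 0.34), and 12.03% of all genes and 6.53% of those at 40 FPKM or more had a higher ratio. With each library rescaled to the same sum its log2 ratio was 0.31, just short of the 25% limit (0.32). All 4 of its listed transcripts, which differ outside the coding part and share the same 101 codons, were higher. S100A4-204 carried 93.0% of the gene with DMSO and 91.9% with OPA1, at 287 and 359 FPKM. The lesser transcript S100A4-202, which starts farthest upstream, was at 10.3 and 15.97 FPKM. Most of the S100A4 difference in FPKM thus lay in S100A4-204, while the shares of the transcripts changed little. The 4 values are estimates from reads that transcripts share, so their common direction is not separate evidence.

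S100A6, or calcyclin, which binds the ubiquitin ligase adaptor CACYBP and annexin A11 (chromosome 1, 153507075 to 153508720, minus strand), was at 230.1 and 261 FPKM, 1.13-fold higher (log2 ratio 0.18). Transcript S100A6-201 was at 184 and 204 FPKM and S100A6-205 at 44.5 and 55.6 FPKM. The other two, S100A6-202 and S100A6-203, were below 2 FPKM in both libraries, and S100A6-202 was the lower one of the 4 with OPA1, at 1.01 and 0.616 FPKM. S100A11, or calgizzarin, the partner of annexin A1 (chromosome 1, 152004982 to 152009511, minus strand), was the highest member at 389 and 435 FPKM, 1.12-fold higher (log2 ratio 0.16). It has 1 listed transcript, which codes for 105 amino acids, and at least 2 annotated pseudogenes, S100A11P1 and S100A11P2, so part of its reads may be shared with copies. The 4 non-calprotectin S100 members were therefore all higher, by 1.12-fold to 1.36-fold.

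Among the S100 members the calprotectin subunits differed least. S100A9, the larger subunit, was at 133 FPKM under DMSO and 142 FPKM under OPA1, 1.06-fold higher (log2 ratio 0.09; chromosome 1, 153330330 to 153333503, plus strand). S100A8, the smaller subunit, was at 44.5 and 44.2 FPKM, a fold of 0.993 (log2 ratio -0.01; chromosome 1, 153362508 to 153363664, minus strand). S100A8 was thus level, and 51.8% of all genes had a higher ratio. Its main transcript, S100A8-202, was at 42.9 and 42.2 FPKM, and S100A8-201, with the same 93 codons, was at 1.62 and 2.05 FPKM. Although the proteins pair, their mRNAs were unequal in both libraries: the S100A8 level was 0.334 of that of S100A9 with DMSO and 0.312 with OPA1. S100A12, or calgranulin C, whose gene lies between those of S100A8 and S100A9, was low, at 1.72 and 1.19 FPKM.

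Of the annexin members, ANXA2, ANXA5 and ANXA6 had nearly the same ratio of gene sums, and ANXA1 was level. ANXA2, which links membranes to actin and, with S100A10, binds plasminogen at the cell surface (chromosome 15, 60639333 to 60690941, minus strand), was at 88.3 and 100.9 FPKM, 1.14-fold higher (log2 ratio 0.19). ANXA5, which binds exposed phosphatidylserine and is used as a stain of apoptotic cells (chromosome 4, 122589110 to 122618268, minus strand), was at 78.1 and 89.5 FPKM, 1.15-fold higher (log2 ratio 0.19). ANXA6, an annexin with a doubled core that takes part in membrane and cholesterol traffic (chromosome 5, 150480273 to 150537443, minus strand), was at 71.3 and 82.4 FPKM, 1.15-fold higher (log2 ratio 0.20). These 3 ratios lie within 0.02 of each other. ANXA1, or lipocortin, which is released by leukocytes and acts on formyl peptide receptors to damp inflammation (chromosome 9, 75766673 to 75785309, plus strand), was level at 56.9 and 56.4 FPKM, a fold of 0.991 (log2 ratio -0.01). The S100A11 level was 6.84 times that of ANXA1 with DMSO and 7.72 times with OPA1.

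Behind these sums the transcripts of the annexins moved in both directions. Of the 20 annexin transcripts, 11 were higher and 9 lower, and 4 were higher and 3 lower by 2-fold or more, where 7.78% of all listed transcripts were higher and 8.04% lower by as much. Among transcripts of genes at a mean level of 40 FPKM or more these shares were 7.03% and 7.61%. Of the 13 S100 transcripts, 11 were higher, 2 lower and 0 at least 2-fold apart in either direction. The share of all transcripts higher by any amount was not calculated. The counts of transcripts higher or lower by any amount are thus descriptions only, and transcripts of a gene are not separate cases. The percent of a gene's FPKM that lay on another transcript in the other library was 30.04% for ANXA2, 19.1% for ANXA1, 12.3% for ANXA6 and 9.3% for ANXA5, and 2.04% or less for S100A4, S100A6 and S100A8. S100A9, S100A10 and S100A11 have 1 listed transcript each and could show no exchange. Among 1131 genes with more than 1 listed transcript and a mean of 40 FPKM or more the median was 4.94%, and 31.9% of them exceeded 10%. FPKM per transcript are estimates from reads that transcripts share, so an exchange within a gene can also be a different division of the same reads; that part was not tested.

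In ANXA2, transcript ANXA2-203 was at 55.6 FPKM under DMSO and 84.1 FPKM under OPA1, and its share went from 62.9% to 83.3%. ANXA2-204 went the other way, at 22.9 and 2.02 FPKM. ANXA2-202, also lower, was at 3.77 and 0.564 FPKM. These 3 transcripts have the same coding part of 339 codons and differ outside it, and their sum was nearly level, at 82.2 and 86.7 FPKM, or 1.05-fold higher. Most of the higher ANXA2 sum was in ANXA2-226, at 2.41 and 11.3 FPKM, a model whose annotated coding part is incomplete at an end. ANXA2-201, which codes for a longer protein of 357 amino acids, was at 1.34 and 0.028 FPKM. ANXA2 has 3 annotated pseudogenes, ANXA2P1, ANXA2P2 and ANXA2P3, so reads may be shared with these copies.

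In ANXA1, the leading transcript ANXA1-201 was lower with OPA1, at 54.6 and 43.3 FPKM. ANXA1-202, which starts downstream of it and has the same 346 codons, was higher, at 2.24 and 11.9 FPKM. Together they were at 56.8 and 55.2 FPKM, so the values of these transcripts differ in opposite directions within a level sum, and both have the same coding part. In ANXA5, ANXA5-201, which codes for the full protein of 320 amino acids, was at 48.8 and 64.3 FPKM, 1.32-fold higher. ANXA5-210, a shorter form of 220 codons, was lower at 27.0 and 23.4 FPKM, and ANXA5-202 was at 2.24 and 1.86 FPKM. The full-length form of ANXA5 thus differed by more than the gene sum.

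ANXA6 was the reverse of ANXA5. Its longest coding form, ANXA6-201 with 673 codons, was nearly level at 52.2 and 50.2 FPKM. The higher sum lay in ANXA6-211, a form of 460 codons, at 15.5 and 25.7 FPKM, and ANXA6-202 was listed at 0 under DMSO and at 1.86 FPKM under OPA1. An exact 0 can arise when the estimate for a transcript fails, and it is not read as absence. When the most abundant transcript stood for each gene, the log2 ratio was 0.59 for ANXA2, 0.39 for ANXA5, -0.057 for ANXA6 and -0.33 for ANXA1, so the near-equal ratios of the first 3 and the level sum of ANXA1 hold for sums only.

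**Figure D3:**
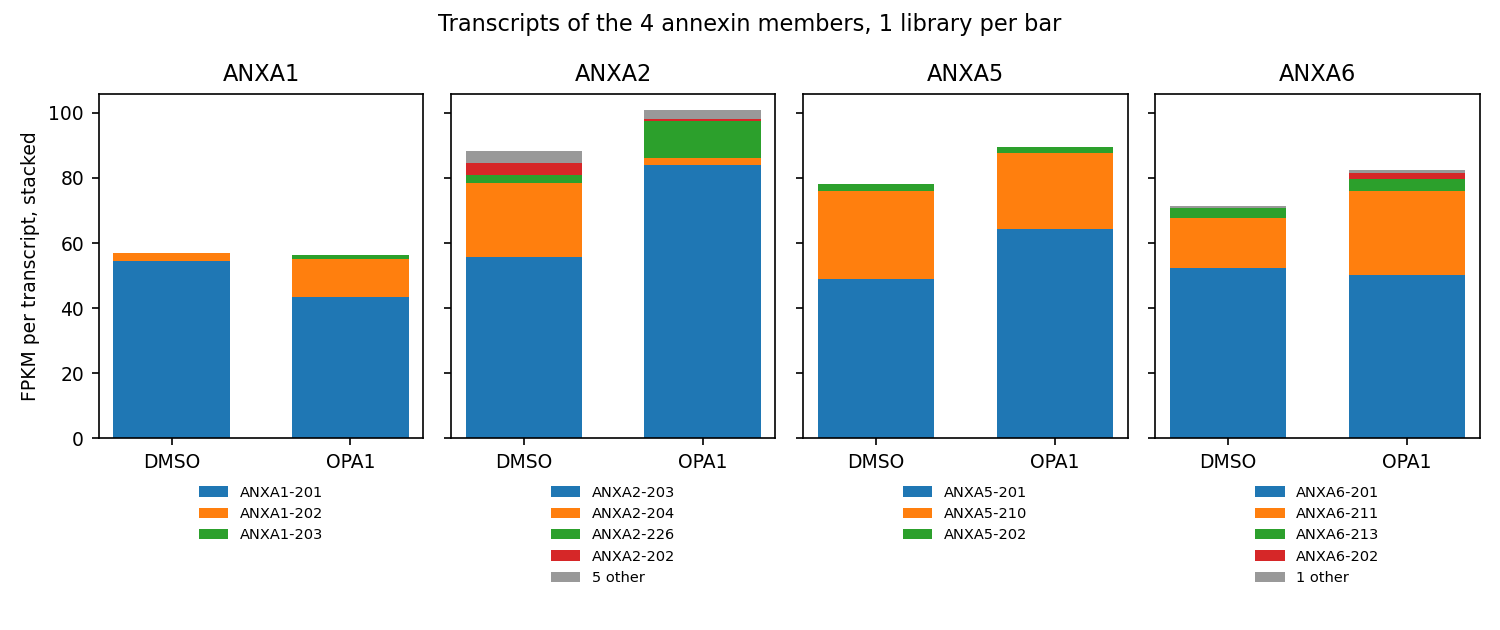
FPKM of the listed transcripts of ANXA1, ANXA2, ANXA5 and ANXA6, stacked from 0, in the DMSO and the OPA1 library; each bar is 1 library, and transcripts beyond the 4 highest of a gene are joined in grey. The ANXA2-204 layer shrinks from 22.9 to 2.02 FPKM while ANXA2-203 grows from 55.6 to 84.1 FPKM, and ANXA1-202 grows from 2.24 to 11.9 FPKM.

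Other genes of both families were mostly low and moved in both directions. Of 15 further S100 genes drawn up for this comparison 4 had rows in the table used. At a mean level of 1 FPKM or more were 3 of them, 1 higher and 2 lower, where 49.9% of all genes were higher. S100P, an S100 protein first found in placenta, was at 9.37 FPKM under DMSO and 3.67 FPKM under OPA1, 2.55-fold lower (log2 ratio -1.15). S100A13, which takes part in release of proteins without a signal peptide, was at 2.09 and 2.38 FPKM, and S100A5 was at 0.59 and 0.605 FPKM. The direction of S100P was thus opposite to that of the abundant members, at a level at which folds vary more.

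Of 9 further annexins 6 had rows, 3 of them higher and 3 lower, where 49.9% of all genes were higher. Their median log2 ratio was 0.05. ANXA4, an annexin of secretory epithelia, was the only one of these at a level like the members', at 48.9 and 60.1 FPKM, 1.23-fold higher (log2 ratio 0.29). ANXA11 was at 22.1 and 24.7 FPKM and ANXA7 at 28.7 and 27.7 FPKM. ANXA3 was 2.19-fold lower, at 3.35 and 1.53 FPKM. ANXA8 was at 0.798 and 2.66 FPKM and its near-identical copies ANXA8L1 and ANXA8L2 at 2.71 and 2.34 FPKM and at 0.525 and 2.17 FPKM, so the division of reads among the 3 is uncertain. With these genes the families show, at mean levels above 20 FPKM, no difference of 25% or more other than those of S100A10 and S100A4.

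**Figure D4:**
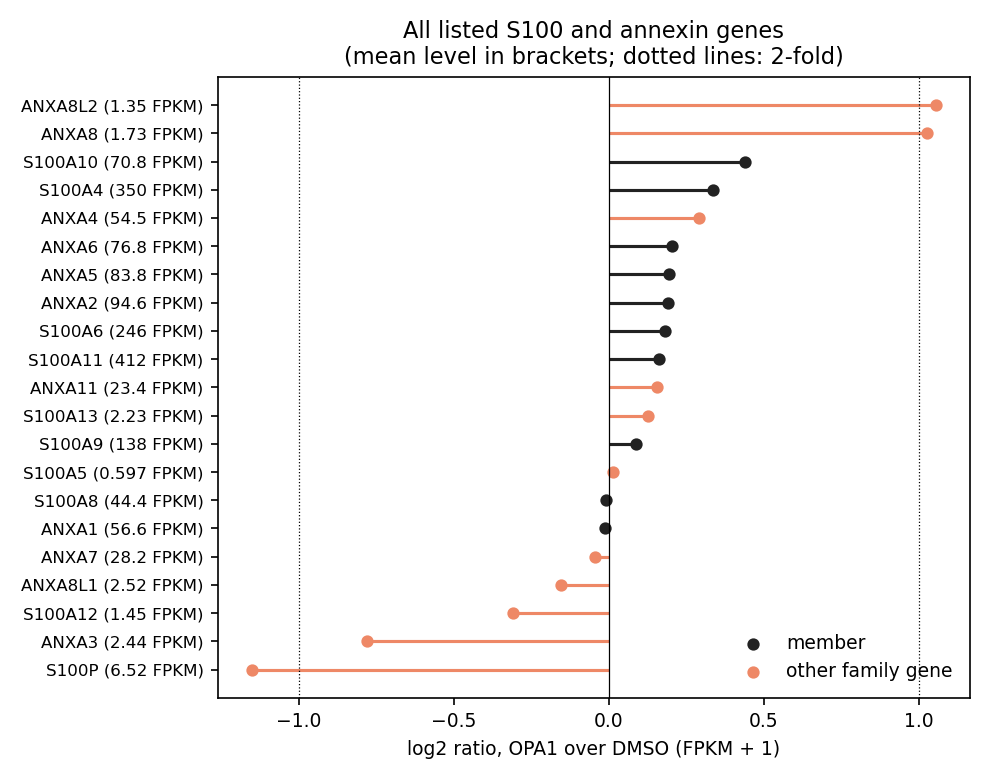
Log2 ratio of the OPA1 over the DMSO library on the FPKM + 1 scale (horizontal axis) for every listed S100 and annexin gene, with its mean FPKM in brackets and dotted lines at 2-fold; black marks members and orange other genes of the families. S100A10 leads the members at 0.44, while the ratios beyond 2-fold, such as that of S100P at -1.15, belong to genes with a mean under 10 FPKM.

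Receptors and partners known from other work were taken as lists. Of 13 receptor genes 6 had a mean level of 1 FPKM or more, of which 1 was higher and 5 lower, 2 of them by 2-fold or more, against 49.9% of all genes higher and 1.99% lower by 2-fold or more. Their median log2 ratio was -0.29, and so few genes do not show that the list as a group was lower. AGER, the receptor RAGE that binds several S100 proteins, was at 3.96 and 0.911 FPKM, 4.35-fold lower. ALCAM, an adhesion molecule related to RAGE and named as an S100 receptor, was at 35.0 and 12.6 FPKM, 2.78-fold lower, with its main transcript ALCAM-205 at 24.4 and 4.92 FPKM. BSG, or basigin, a receptor of S100A9, was the higher one, at 175 and 184 FPKM. TLR4, through which S100A8 and S100A9 signal, was at 2.77 and 2.67 FPKM. AGER is carried by 5 low transcripts of which some are listed at 0, so its fold rests on low values whose read depth is unknown.

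Of 27 partner genes 20 had a mean level of 1 FPKM or more, 11 higher and 9 lower, with a median of 0.03. Of all genes at such a level 49.9% were higher, so these counts were near the share of all genes. CACYBP, the calcyclin-binding protein, was at 43.2 and 64.3 FPKM, 1.49-fold higher, and SUGT1, a co-chaperone related to it that S100A6 also binds, was at 18.01 and 12.2 FPKM. S100PBP, which binds S100P, was at 12.7 and 8.91 FPKM. AHNAK, a giant scaffold that binds the S100A10 and annexin A2 complex, was level at 43.9 and 43.7 FPKM, and MYH9, the myosin chain bound by S100A4, was at 98.9 and 95.2 FPKM; both were chosen after their values were seen.

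Of 25 other calcium-binding EF-hand genes and their partners 24 had a mean level of 1 FPKM or more. Of these 10 were higher and 14 lower, with a median of -0.01, where 49.9% of all genes at such a level were higher. CHP1, a calcineurin-like EF-hand protein, was 4.33-fold lower at 22.7 and 5.23 FPKM, nearly all in CHP1-201, at 22.2 and 2.75 FPKM. RCN1, of the endoplasmic reticulum, was at 18.2 and 12.6 FPKM and SDF4, of the Golgi, at 33.6 and 45.6 FPKM. The large difference in CHP1 thus lay mainly in 1 transcript.

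The cell type of the labels was checked with markers. Of 17 monocytic markers 14 had rows. CD14, FCN1 and VCAN had none, and ITGAM was low, at 2.08 and 2.30 FPKM. Of all genes with a mean level of 1 FPKM or more 49.9% were higher. Among the 13 monocytic markers at such a level 8 were higher and 5 lower. Those with the largest ratios went both ways: FCGR2A, an Fc receptor, was at 11.2 and 19.8 FPKM, CD68, a lysosomal protein of macrophages, at 20.7 and 14.2 FPKM, ELANE, neutrophil elastase, at 363 and 448 FPKM and LYZ, lysozyme, at 76.5 and 91.0 FPKM. Their median log2 ratio was 0.10, and their summed level was 789 FPKM under DMSO and 904 FPKM under OPA1, a difference that lay mostly in ELANE; its part in the higher S100 sum was not tested. Of the mature neutrophil markers 3 of 10 had rows, with a summed level of 20.2 and 17.7 FPKM. All 3 were lower, where 49.9% of all genes with a mean level of 1 FPKM or more were higher. Their log2 ratios were -0.04 for CSF3R, -0.17 for CXCR2 and -0.58 for CAMP, and 3 genes do not show that the list was lower. T and NK markers had 2 of 11 rows, of which NKG7 was highest at 26.9 and 27.9 FPKM, B cell markers 4 of 7 with a sum of 2.31 and 3.35 FPKM, erythroid and megakaryocyte markers 3 of 11 with a sum of 2.11 and 2.62 FPKM, and epithelial and fibroblast markers 0 of 11.

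The table lists 9 S100A genes in a stretch of 1645 kb on chromosome 1 (151955391 to 153600715, hg19). S100A10 and S100A11 lie side by side at one end, with starts 49.6 kb apart, and were 1.36-fold and 1.12-fold higher. S100A9, S100A12 and S100A8 follow about 1375 kb, 1391 kb and 1407 kb from the start of S100A10, and S100A6, S100A5 and S100A4 at 1552 kb, 1554 kb and 1561 kb. The order of the genes along the chromosome is not the order of their ratios: S100A4, with 0.34, and S100A6, with 0.18, are near neighbours, and S100A8, with -0.01, lies between S100A9, with 0.09, and S100A6. None of the 10 members overlaps another gene of the table on either strand; non-coding genes were not analysed here.

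**Figure D5:**
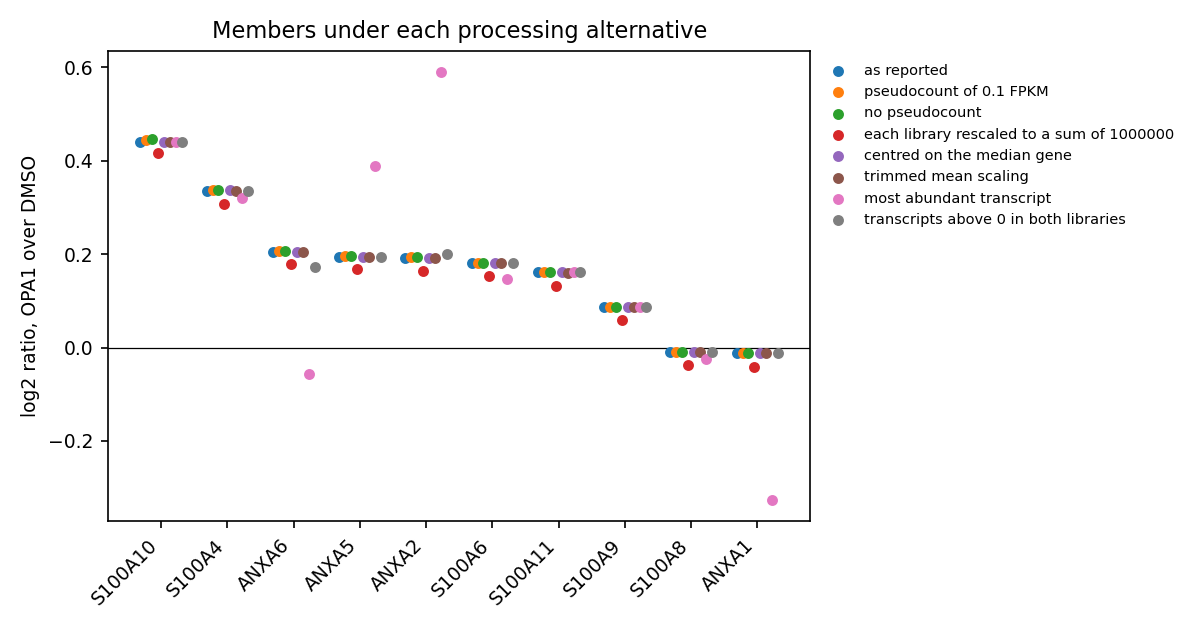
Log2 ratio of each member (vertical axis) as reported and under 7 processing alternatives (colours), with members ordered by the reported ratio. Taking the most abundant transcript moves ANXA2 to 0.59 and ANXA1 to -0.33, and puts S100A6 (0.15) below S100A11 (0.16); under the other 6 the points of a member lie close together.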

How the data were processed

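Total RNA of 2 THP-1 cultures was sequenced as Illumina libraries, per the labels' protocols. The deposited table gives FPKM per transcript, per the file headers, so depth and counts are unknown. The tools HISAT, StringTie and edgeR and the build hg19 are listed, without versions or roles, per the submitters' processing notes; strandedness is not given in the sources used here. All 29373 rows were protein_coding and reached 0.5 FPKM (0.500007 or more) in 1 library, which was tested on the table; 2 emptied lines are not reported here. A search for the step of 1 read in 300 low genes with 1 transcript found no common step (alignment at most 0.155 and 0.193, where 1 is whole reads), so counts were not recovered.

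Transcripts were summed per gene and OPA1 was divided by DMSO on a log2 scale with 1 FPKM added to each, for genes with a mean level of 1 FPKM or more. The ratio step was tested on simulated data. Members and lists were chosen with earlier results of these data known. Named genes were all members, every listed S100 and annexin gene, and up to 4 genes of each list with the largest ratios. TLR4, AHNAK and MYH9 were named outside that rule, and CD68, also on the receptor list, is given with the monocytic markers. With 2 libraries no likeness of pattern between genes can be measured. A few of these genes are not reported here by name but stay in the counts, sums and list medians. Alternatives were a pseudocount of 0.1 FPKM or none, rescaling (sum of 1000000), ratios centred at the median gene, a trimmed mean (30% at each end), the most abundant transcript, transcripts above 0 in both libraries, and a minimum mean of 5 FPKM, none, or 40 FPKM (chosen after seeing the data). Exons and coding lengths came from GENCODE release 29 by transcript ID, and promoters from RefSeq (GRCh38.p14). Protein sequences were not used here. The software was numpy 2.4.6 and pandas 2.3.3 under Python 3.11.15, with matplotlib 3.10.9 for figures.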

Additional observations from a re-analysis of the deposited data

How the results depend on the processing

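No paired analysis was possible because each group was 1 library, and no library could be left out. Of 173 values recomputed under an alternative, 156 moved by at most 0.1 in log2 or by at most 1.5 times in a count or percent, and none of the called members changed direction. Under rescaling to a sum of 1000000 the number of members higher by 25% or more was 1 in place of 2, since S100A4 came to 0.31, and the percent of all genes was 7.73% for 1.5-fold lower, 3.10% for 2-fold higher and 3.54% for 2-fold lower; on that scale 1 FPKM is a smaller addition. With a pseudocount of 0.1 FPKM, 3.07% of all genes were at least 2-fold higher. With the most abundant transcript of a gene the log2 ratios were -0.33 for ANXA1, 0.59 for ANXA2, 0.39 for ANXA5 and -0.057 for ANXA6, with 1 member lower by 20% or more (the same fold downwards) and 1 at least 1.5-fold higher; these use other transcripts than the sum by construction. Among genes at a mean level of 40 FPKM or more, 7.46% were higher by 25% or more and 6.53% lower by 20% or more, and the percents higher and lower were 2.01% and 2.37% at 1.5-fold, and 0.574% and 0.933% at 2-fold. Scaling moved the median gene by at most 0.03. Depth is unknown, so no counting error can be set beside any value, and a difference of the size seen in the members cannot be told from variation between cultures.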

Other observations

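ANXA2R, whose product has been described as a receptor of annexin A2, was at 12.2 FPKM under DMSO and 18.9 FPKM under OPA1 (log2 ratio 0.60). Its estimated FPKM lay almost wholly on another transcript in the other library. ANXA2R-201 was at 12.1 and 1.51 FPKM and ANXA2R-202 at 0.105 and 17.4 FPKM, so the share of ANXA2R-202 was 0.863% with DMSO and 92.0% with OPA1. Both transcripts code for the same 193 amino acids. S100A13 showed the same kind of exchange at a low level: S100A13-204 was at 2.09 and 0.00177 FPKM, and S100A13-203 was listed at 0 under DMSO and stood at 2.37 FPKM under OPA1. Such an exchange can also be a different division of reads that overlapping transcripts share, which was not tested. Among 7207 genes with more than 1 listed transcript and a mean level of 1 FPKM or more, 58.2% had over 10% of their FPKM exchanged. The genes of this paragraph were chosen after their values were seen.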
